A study of Mus musculus with 2 samples.

Results

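The genes described here are fibroblast growth factor (FGF) ligands and receptors read in the somatic cells of the mouse foetal gonad. They were chosen by name, with earlier results of these data known. The list holds 6 ligand genes (Fgf1, Fgf2, Fgf7, Fgf9, Fgf10 and Fgf18) and 4 receptor genes (Fgfr1, Fgfr2, Fgfr3 and Fgfr4). All 10 were found in the somatic count table, which lists 42422 genes, and all 10 were among the 15125 genes tested. The study cultured gonads, each still joined to its mesonephros, from E12.5, an embryonic age in days, to ask what FGF receptors and the kinases MEK1/2 contribute to testis development. Inhibitors were given to XY gonads at 500 nM: FGFRi is BGJ398, an inhibitor of the FGF receptor kinases, and MEKi is PD0325901, an inhibitor of MEK1/2. DMSO was the vehicle control. RNA from GFP-negative cells was sequenced from its 3′ end, and each value is a count of distinct molecules, recognised by random tags (UMIs), scaled to the size of its library and given as CPM, the counts expected in a library of standard size.

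There were 10 groups of 4 libraries. XX and XY cells were taken at E12.5 before culture, after 24 h with DMSO and after 72 h with DMSO, and XY cells also after 24 h and 72 h with FGFRi and after 24 h and 72 h with MEKi. The embryos of every group came from a cross of ASMU Swiss mice with mice carrying an Oct4-eGFP transgene on a background labelled 129svJT2 (129T2svJ in the methods) and are labelled wild type, so that germ cells were green and the somatic cells were sorted as those without GFP. Sex was read from the presence of testis cords, the mesonephros was removed before sorting, and the gonads of several embryos were pooled in each library. GFP-negative cells are a mixture of all somatic cell types of the gonad. In such a mixture, fewer cells of a type and less RNA per cell cannot be told apart.

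FGFs are secreted ligands that bind receptor tyrosine kinases on the cell surface with heparan sulphate as a cofactor, and the activated receptor signals through RAS, RAF and MEK to the kinase ERK, among other routes. ERK activity raises the expression of its own inhibitors, such as the Sprouty proteins and the phosphatase DUSP6. In the mouse gonad, FGF9 from supporting cells acts through FGFR2 to establish the testis, in opposition to WNT4.

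All 10 genes were above the filter on low counts, but not all were measured well. Fgf7 reached the level of the filter in XY libraries at 72 h alone, and Fgfr4 in XY libraries at 72 h with DMSO or MEKi alone. These groups had the highest means of the 2 genes, so calls that rest on them are not independent of the filter. Fgf7 had 192 counts summed over the 40 libraries and Fgfr4 had 168, each with at least 1 count in 31 libraries, and Fgf1 had 347 counts in 36 libraries. These are at the edge of what can be measured at this depth: the median library held 3.5 counts of Fgf7, 3 of Fgfr4 and 7.5 of Fgf1, and in uncultured XX cells Fgfr4 was at 0 in all 4 libraries. The other 7 genes had between 706 counts (Fgfr3) and 6115 (Fgfr1) in all. Library totals were between 1380707 and 4836550 counts. Xist had 1090 to 2427 counts in XX and 0 to 14 in XY libraries, and the Y-linked gene Ddx3y had 0 to 3 in XX and 65 to 253 in XY libraries, so every library matched the sex of its label. Treatment and time have no such check. The MEKi 24 h replicate M2 is missing from the list of libraries in the labels and was placed by its name in the count table and in the barcode list. The defining markers of the supporting cells were present: the summed level of 6 Sertoli cell markers was 1498 to 1643 CPM in uncultured XY cells and 146 to 248 CPM in XX cells, and that of 6 pre-granulosa cell markers 1411 to 1788 CPM in XX and 92.6 to 117 CPM in XY cells.

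The promoter windows of Fgf9, Fgf10 and Fgfr2 are shown because Fgf9 and Fgfr2 had the largest called differences between XX and XY cells before culture and Fgf10 the largest at 24 h. Each window is RefSeq sequence of the build GRCm38.p6, from 250 bases before to 50 bases after the start of the gene, written 5′ to 3′ on the strand of the gene. Capitals mark the match to a motif that was searched. Fgf9 lies on the plus strand at chr14:58072436-58072735, Fgf10 on the plus strand at chr13:118714449-118714748 and Fgfr2 on the minus strand at chr7:130266759-130267058.
Fgf9: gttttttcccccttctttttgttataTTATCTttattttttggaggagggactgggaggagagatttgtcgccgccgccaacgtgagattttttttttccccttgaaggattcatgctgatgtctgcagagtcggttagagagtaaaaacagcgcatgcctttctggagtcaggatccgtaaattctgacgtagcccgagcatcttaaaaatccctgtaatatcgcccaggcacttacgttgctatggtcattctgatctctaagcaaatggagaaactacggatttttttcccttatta
Fgf10: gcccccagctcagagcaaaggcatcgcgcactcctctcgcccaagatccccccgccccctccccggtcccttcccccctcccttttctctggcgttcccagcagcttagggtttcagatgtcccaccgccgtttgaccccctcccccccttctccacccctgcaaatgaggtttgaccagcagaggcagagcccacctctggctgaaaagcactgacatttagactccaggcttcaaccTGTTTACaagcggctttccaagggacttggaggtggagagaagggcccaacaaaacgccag
Fgfr2: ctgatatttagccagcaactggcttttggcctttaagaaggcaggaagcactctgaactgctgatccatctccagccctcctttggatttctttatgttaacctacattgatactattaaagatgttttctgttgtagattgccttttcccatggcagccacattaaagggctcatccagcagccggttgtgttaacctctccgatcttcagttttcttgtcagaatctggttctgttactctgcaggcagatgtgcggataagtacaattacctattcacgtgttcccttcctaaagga
Motifs of 6 families were searched on both strands, and 32851 mouse promoter windows of the same length were searched in the same way. The SOX letters AACAAT are held by 10.7% of all windows, and the NR5A letters AAGGTCA by 4.72%. The TCF/LEF letters CTTTGAT are held by 3.73% of windows, and the forkhead letters TGTTTAC by 3.65%. The ETS letters CCGGAA are held by 14.9%, and the GATA letters AGATAA by 11.2%. The Fgf9 window held the GATA letters once, at position −224 from the start, the Fgf10 window held the forkhead letters once, at −11, and the Fgfr2 window held none of the 6. The windows also differed in base composition, with 42.7% G and C for Fgf9, 60.7% for Fgf10 and 43.7% for Fgfr2. These matches are letters in a window and were not tested as sites.

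XX and XY somatic cells differed in FGF gene expression at every time. Before culture, XX cells had less Fgf9, Fgf18 and Fgfr1 and more Fgfr2 than XY cells, 4 of the 10 genes called against 17.3% of all genes tested. After 24 h with DMSO, Fgf2, Fgf7, Fgf9, Fgf10, Fgfr1 and Fgfr3 were lower in XX cells and Fgfr2 was higher, 7 of 10 against 19.6% of all genes. After 72 h with DMSO, Fgf2, Fgf7, Fgf9, Fgf10, Fgfr1 and Fgfr4 were lower in XX cells and Fgfr2 was higher, again 7 of 10, against 20.3% of all genes. Fgfr2 was the single member that was called higher in XX cells at any time. The median log2 fold change of the 10 genes (XX over XY) was −0.82 before culture, −0.96 at 24 h and −0.83 at 72 h, beside a median of −0.01 over all genes tested at each time. A gene was called at a fold change of at least 1.5 and a false discovery rate (FDR) below 0.05. All FDR values come from the quasi-likelihood test of edgeR, adjusted over all genes by the Benjamini-Hochberg method. Under voom with quality weights and treat, a stricter test of the same fold change, 3 of the 10 genes were called before culture (Fgf9, Fgf18 and Fgfr2), 3 at 24 h (Fgf9, Fgf10 and Fgfr2) and 1 at 72 h (Fgf10).

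**Figure D1:**
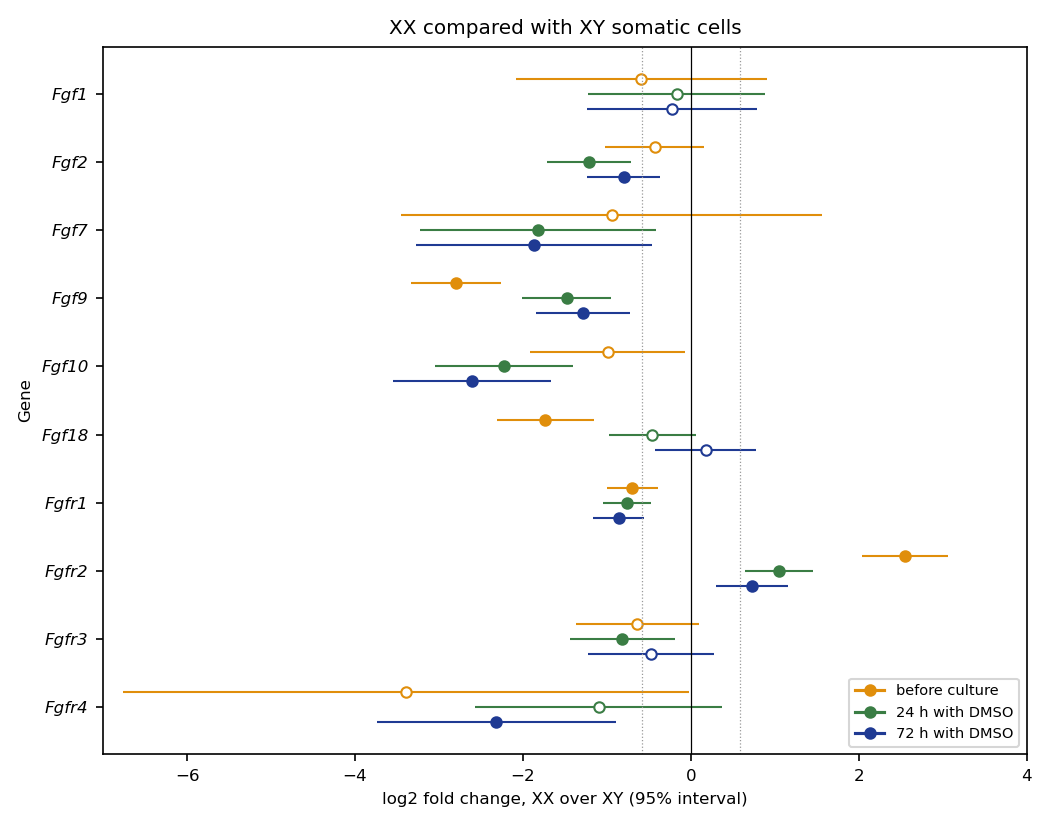
Log2 fold change of each FGF gene, XX over XY cells, before culture and after 24 h and 72 h with DMSO (x axis, log2 scale), with its 95% interval as a line; filled points were called, open points were not, and dotted lines mark 1.5-fold. Fgfr2 lies on the right of 0 at each time and moves towards 0 in culture (2.56, 1.05 and 0.73), whereas Fgf9 lies on the left (−2.80, −1.48 and −1.28).

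Fgf9 encodes the ligand that maintains the testis programme. The gene (ENSMUSG00000021974.15) lies on chromosome 14 of GRCm39, where its main transcript covers 58309673 to 58350316 in 3 exons. Uncultured XY cells had 55.4, 53.5, 44.5 and 44.8 CPM and uncultured XX cells 9.40, 8.84, 3.10 and 5.65 CPM. After 24 h with DMSO the XY libraries had 16.0, 19.9, 22.6 and 13.6 CPM and the XX libraries 2.80, 9.90, 7.74 and 5.14 CPM. After 72 h they had 15.3, 20.9, 16.0 and 25.7 CPM in XY and 6.11, 8.27, 8.05 and 9.40 CPM in XX cells. The XX and XY libraries did not overlap at any time, and the uncultured XY libraries stood above every cultured library. The XX over XY log2 fold change was −2.80 before culture (SE 0.266, FDR 1.35e-12), −1.48 at 24 h (SE 0.265, FDR 1.14e-05) and −1.28 at 72 h (SE 0.279, FDR 0.000276). The last of these was not called under voom with treat, with an FDR of 0.235.

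Fgf18 encodes a ligand of the same subfamily as FGF8 and FGF17. The gene (ENSMUSG00000057967.12) lies on chromosome 11, at 33067014 to 33097828 on the minus strand, with 5 exons. Uncultured XY cells had 19.0, 19.3, 26.8 and 30.9 CPM, and uncultured XX cells 8.54, 9.28, 10.8 and 1.88 CPM. All 4 XY libraries were above all 4 XX libraries, and the log2 fold change was −1.74 (SE 0.288, FDR 3.29e-06). In culture the groups overlapped: the means were 14.7 ± 1.4 CPM in XY and 10.4 ± 2.36 CPM in XX cells at 24 h, and 8.70 ± 2.89 CPM and 10.1 ± 4.16 CPM at 72 h (SD, n = 4). The log2 fold change was −0.46 (95% interval −0.98 to 0.06) at 24 h and 0.18 (−0.42 to 0.78) at 72 h, and neither was called.

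Fgf2 encodes basic FGF, a ligand that lacks a classical signal peptide. The gene (ENSMUSG00000037225.13) lies on chromosome 3, at 37402495 to 37464257, with 3 exons, and shares 3002 exonic bases with Nudt6 on the other strand and 255 with Gm43439 on its own, which was not analysed here. Nudt6 had 304 counts in all libraries, against 2647 of Fgf2, and was not called in any comparison. Before culture the XY libraries had between 11.8 and 14.8 CPM of Fgf2 and the XX libraries 5.55, 13.3, 10.8 and 10.2 CPM, with overlap and a log2 fold change of −0.43 (95% interval −1.02 to 0.16). After 24 h they had 19.3, 32.8, 22.2 and 9.72 CPM in XY and 8.76, 10.4, 10.2 and 7.51 CPM in XX cells. The lowest XY library, M5, lay among the XX libraries, while the log2 fold change of −1.22 passed the test (SE 0.249, FDR 0.000107). After 72 h the XY libraries, at 49.0, 39.3, 41.9 and 60.4 CPM, were all above the XX libraries, at 30.1, 27.2, 19.7 and 34.5 CPM, with a log2 fold change of −0.80 (SE 0.218, FDR 0.0036).

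Fgf10 and Fgf7 encode closely related ligands of the kind that mesenchymal cells send to epithelia, and both bind a splice form of FGFR2. Fgf10 (ENSMUSG00000021732.14) lies on chromosome 13, at 118850915 to 118928672, with 3 exons. Its levels before culture were 6.67, 5.12, 6.69 and 8.70 CPM in XY and 4.27, 6.19, 3.10 and 0.377 CPM in XX libraries, which overlapped. After 24 h the XY libraries had 11.4, 14.7, 11.7 and 8.17 CPM and the XX libraries 1.4, 4.46, 1.45 and 1.58 CPM, and after 72 h they had 14.0, 14.4, 7.48 and 10.9 CPM and 0, 2.95, 1.49 and 3.65 CPM. In culture every XY library was above every XX library at the same time. The log2 fold change was −0.99 before culture (95% interval −1.92 to −0.07, FDR 0.121), −2.23 at 24 h (SE 0.409, FDR 1.75e-05) and −2.60 at 72 h (SE 0.467, FDR 1.27e-05). The interval of the difference between the first 2 of these values, −2.52 to 0.04, included 0.

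Fgf7 (ENSMUSG00000027208.14, chromosome 2 at 125876578 to 125933408, 4 exons) was near the limit of measurement. After 24 h it had 1.78, 1.99, 2.87 and 2.72 CPM in XY libraries and 0.35, 0, 0.967 and 1.58 CPM in XX libraries. These did not overlap, and the log2 fold change was −1.82 (SE 0.701, FDR 0.0466). After 72 h the log2 fold change was −1.87 (SE 0.702, FDR 0.039), with overlap between 0.952 to 4.49 CPM in XY and 0 to 1.79 CPM in XX libraries. The XY libraries at 72 h were also among those through which Fgf7 passed the filter. Both calls rest on few counts: at 24 h the call was lost without XX replicate F4, F5 or F6 or XY replicate M3, M4 or M5, with values from −2.61 to −1.28 over all 8 omissions. At 72 h it was lost without XX replicate F4, F8 or F11 or XY replicate M2, M4 or M5, with values from −3.03 (without XX replicate F7, still called) to −1.54.

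Fgf1, on chromosome 18, encodes acidic FGF, which binds all the FGF receptors. The gene (ENSMUSG00000036585.16) was highest at 72 h, where the group means ran from 4.28 ± 0.81 CPM in XX cells with DMSO to 7.68 ± 1.66 CPM in XY cells with MEKi (SD, n = 4), and lowest in uncultured XX cells, at 1.01 ± 0.93 CPM. Fgf1 was not called in any comparison. Its interval for XX over XY at 72 h, −1.23 to 0.79 on the log2 scale, spans a fold change of more than 1.5 in either direction.

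**Figure D2:**
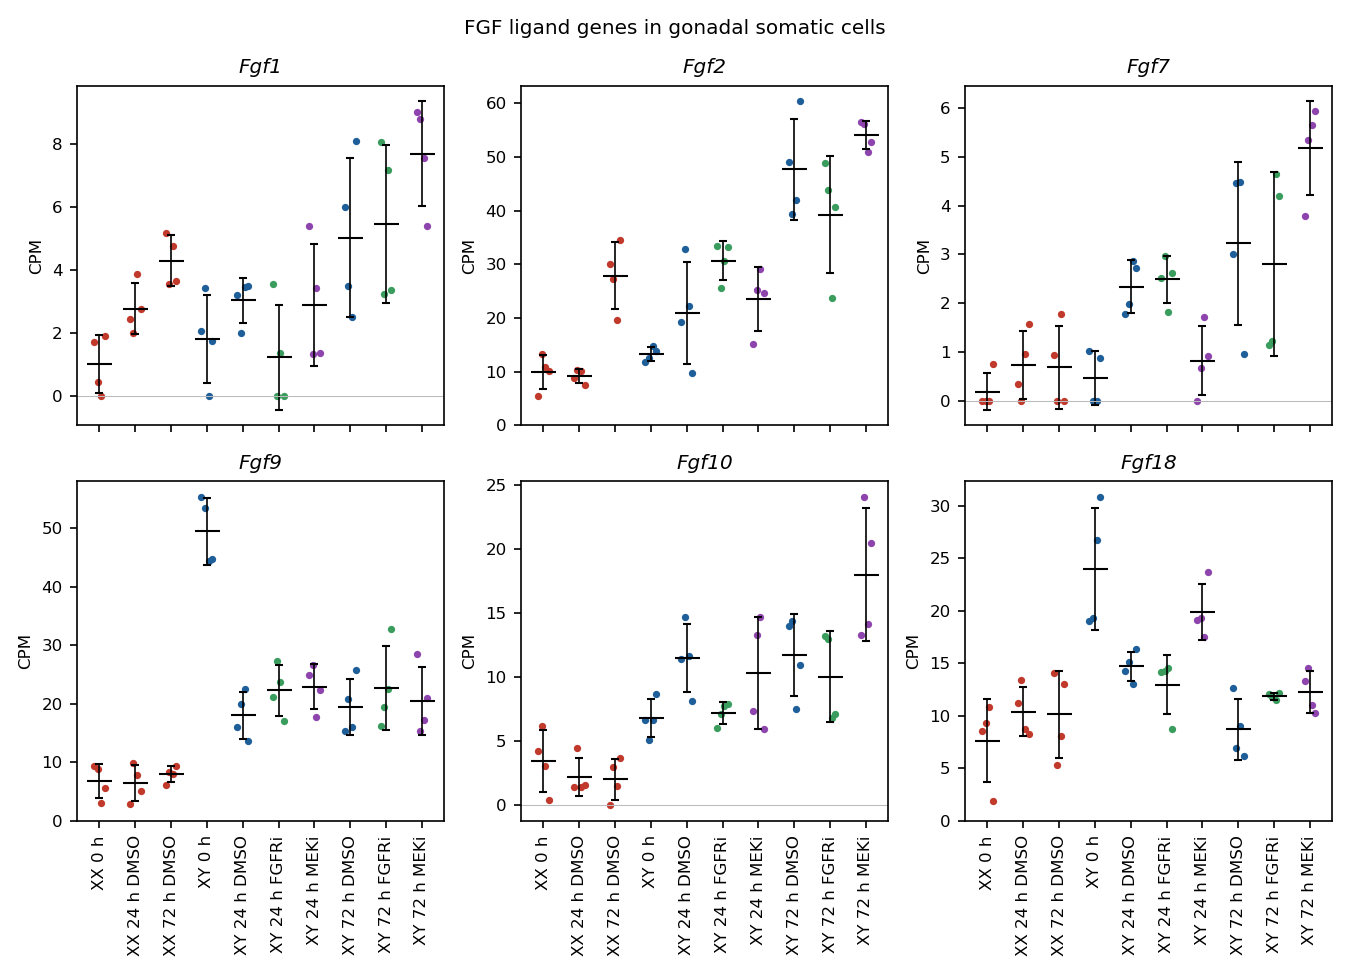
Levels of the 6 FGF ligand genes in CPM (y axis, linear, each gene on its own scale) in the 10 groups; each point is 1 library, and bars give the mean ± SD of 4 libraries. Fgf9 is highest in the uncultured XY libraries (44.5 to 55.4 CPM), and Fgf2 is highest in the XY groups at 72 h (means of 39.2 to 54.1 CPM).

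Among the receptors, Fgfr2 showed the opposite pattern to Fgf9. FGFR2 is the receptor through which FGF9 acts in the early testis, and the gene (ENSMUSG00000030849.18) lies on chromosome 7, at 129763471 to 129868272 on the minus strand, with 18 exons. Uncultured XX cells had 48.3, 48.2, 34.9 and 61.1 CPM and uncultured XY cells 7.69, 7.40, 11 and 6.96 CPM, a ratio of means of 5.82. After 24 h the XX libraries had 52.2, 45.3, 61.4 and 39.1 CPM and the XY libraries 13.5, 35.0, 21.8 and 23.3 CPM. After 72 h they had 55.0, 29.5, 45.0 and 42.3 CPM in XX and 29.7, 25.4, 20.9 and 27.6 CPM in XY cells. The groups were apart before culture and at 24 h and overlapped at 72 h through XX replicate F4 and XY replicate M2. The XX over XY log2 fold change was 2.56 before culture (SE 0.256, FDR 6.97e-12), 1.05 at 24 h (SE 0.202, FDR 3.88e-05) and 0.73 at 72 h (SE 0.214, FDR 0.00701). The last of these was not called by glmTreat, edgeR's test against a fold change of 1.5 (FDR 0.498), or by voom with treat.

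Fgfr1 encodes a receptor broadly expressed in mesenchyme. The gene (ENSMUSG00000031565.18) lies on chromosome 8, at 26008745 to 26066824, with 18 exons. Uncultured XY cells had 54.9, 72.3, 96.1 and 73.5 CPM and XX cells 38.9, 49.0, 42.6 and 51.6 CPM. No XX library reached an XY library before culture, and this was also so at 24 h, with 73.8 to 86.8 CPM in XY and 32.8 to 54.7 CPM in XX cells, and at 72 h, with 63.3 to 89.3 and 36.6 to 50.1 CPM. The log2 fold changes were −0.70 (SE 0.151, FDR 0.000262), −0.76 (SE 0.14, FDR 2.02e-05) and −0.86 (SE 0.15, FDR 7.78e-06). They were close to 1.5-fold in size, none of the 3 was called by glmTreat or voom with treat, and without XY replicate M5 the value before culture was −0.56 and was not called.

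The balance of the receptor genes within a library separated XX from XY cells without use of the library total. Counts of Fgfr2 per 100 counts of Fgfr1 were 106 ± 19.4 in uncultured XX cells, 106 ± 19.3 after 24 h and 106 ± 32.0 after 72 h (SD, n = 4). In XY cells they were 11.3 ± 1.99 before culture, 28.7 ± 9.42 after 24 h and 35.0 ± 3.18 after 72 h with DMSO. The highest XY DMSO library, at 40.6, was below the lowest XX library, at 80.6. The ratio compares groups, not the abundance of the 2 receptors, since the efficiency of 3′ counting can differ between genes.

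Fgfr3 and Fgfr4 were lower. Fgfr3 (ENSMUSG00000054252.18, chromosome 5 at 33879067 to 33894412, 18 exons) encodes a receptor known for restraining bone growth. After 24 h it had 7.13, 12.4, 8.24 and 12.4 CPM in XY and 3.5, 5.94, 6.29 and 7.12 CPM in XX libraries, which were barely apart, and the log2 fold change of −0.81 (SE 0.313) had an FDR of 0.0464. Without XX replicate F4, F5 or F6 or XY replicate M3 or M5 it was not called, with values from −0.95 to −0.64 over the 8 omissions. At the other times the values were −0.64 (95% interval −1.37 to 0.10) and −0.47 (−1.22 to 0.28).

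Fgfr4 (ENSMUSG00000005320.9, chromosome 13 at 55300453 to 55316572, 18 exons) encodes the receptor through which FGF15 acts in the liver. It was at 0 counts in all 4 uncultured XX libraries, where 3 counts over the group would correspond to 0.351 CPM, and had 4 counts in all in the uncultured XY libraries, so no fold change is given. After 72 h with DMSO it had 3.33, 4.47, 4.49 and 4.28 CPM in XY and 0, 1.18, 0.596 and 1.57 CPM in XX libraries. These did not overlap, and the log2 fold change was −2.32 (SE 0.708, FDR 0.01), from 37 counts in XY and 7 counts in XX cells. It was called by glmTreat and not by voom with treat (FDR 0.0943). The XY libraries with DMSO at 72 h were among those through which Fgfr4 passed the filter, so this call is not independent of it.

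**Figure D3:**
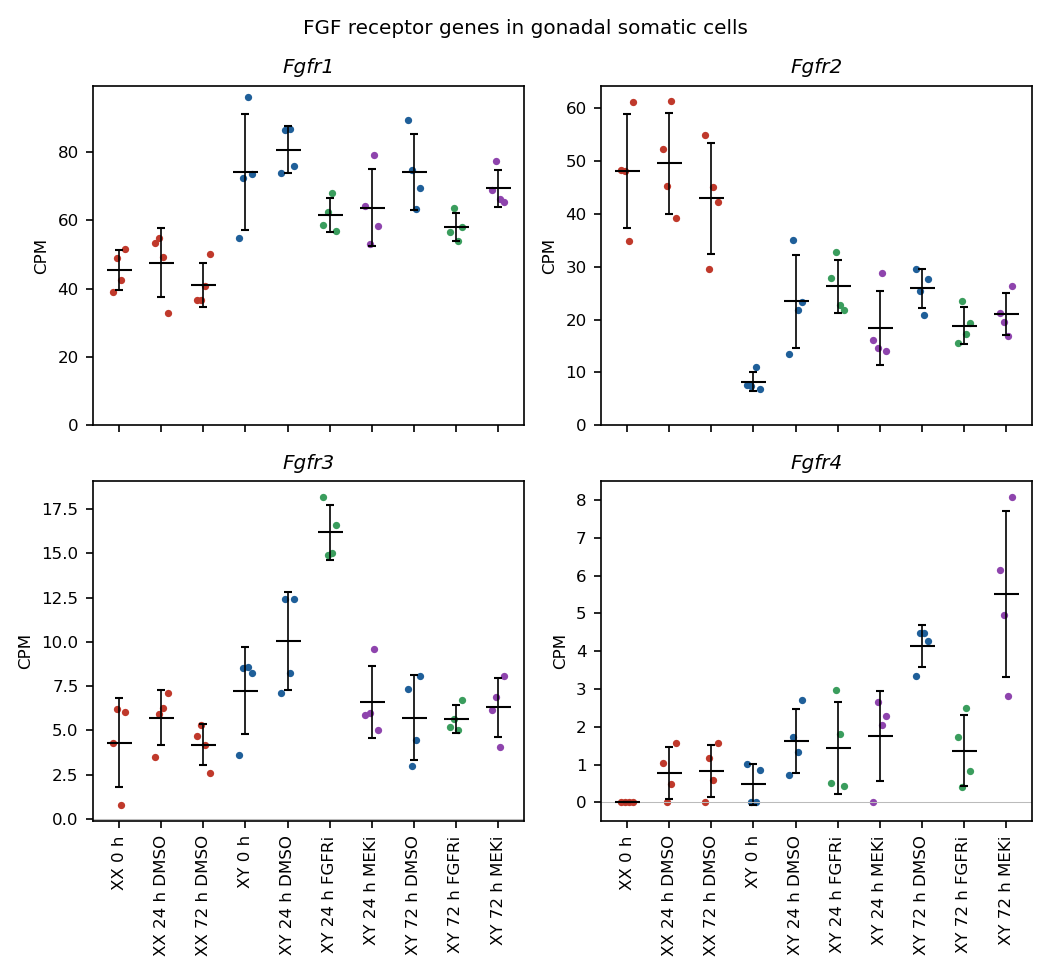
Levels of the 4 FGF receptor genes in CPM (y axis, linear, each gene on its own scale) in the 10 groups; each point is 1 library, and bars give the mean ± SD of 4 libraries. All XX libraries of Fgfr2 lie at 29.5 CPM or above, and the uncultured XY libraries lie at 6.96 to 11 CPM.

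FGF genes of XY cells changed over the first 24 h of culture. No uncultured gonads of a later age were analysed here, so culture and the passing of 24 h of development cannot be told apart. From E12.5 to 24 h with DMSO, Fgf9 fell by 1.42 (SE 0.220, FDR 1.52e-06) and Fgf18 fell by 0.72 (SE 0.248, FDR 0.0274) on the log2 scale in XY cells, whereas Fgfr2 rose by 1.52 (SE 0.263, FDR 1.36e-05), Fgf7 by 2.15 (SE 0.798, FDR 0.0429) and Fgf2 by 0.69 (SE 0.249, FDR 0.0359). These were 5 of the 10 genes against 14.4% of all genes tested. The mean of Fgf9 went from 49.5 ± 5.72 to 18.0 ± 3.99 CPM and that of Fgfr2 from 8.26 ± 1.85 to 23.4 ± 8.85 CPM (SD, n = 4), with no overlap in either gene. For Fgf2 the libraries overlapped, and without XY 24 h replicate M3 its value was 0.40 and was not called. That call was also lost without the 24 h replicate M4 or the uncultured replicate M2, M3 or M6. The calls of Fgf7 (without uncultured M3 or M5 or 24 h M3, M4 or M5, with values from 1.75 to 2.69) and Fgf18 (without uncultured M5 or M6 or 24 h M2, M3 or M4, from −0.82 to −0.57) also depended on single libraries. Those of Fgf9 and Fgfr2 did not.

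In XX cells over the same 24 h, 0 of the 10 genes were called, against 7.73% of all genes. Fgfr4 alone had an unadjusted p below 0.05, and DESeq2, glmTreat and voom with treat also called 0. Without XX 24 h replicate F5 Fgfr4 was called, at an FDR of 0.0461. The XX levels of Fgf9 and Fgfr2 before and after this time were 6.75 ± 2.94 and 6.40 ± 3.09 CPM, and 48.1 ± 10.7 and 49.5 ± 9.56 CPM (SD, n = 4). Their log2 fold changes, −0.10 (95% interval −0.75 to 0.54) and 0.01 (−0.39 to 0.41), had intervals that exclude changes of the size seen in XY cells.

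The change of the XX to XY difference over these 24 h was tested directly. It was called for 3 of the 10 genes, against 6.2% of all genes: Fgf9, at 1.32 on the log2 scale (SE 0.390, FDR 0.0259), Fgf18, at 1.28 (SE 0.391, FDR 0.0341), and Fgfr2, at −1.50 (SE 0.332, FDR 0.00164). For each of the 3 the XX to XY difference was smaller after 24 h than before. Fgfr2 was also called by glmTreat and with each library left out in turn, and voom with treat called none. Fgf9 was not called without uncultured XX F4 or F5, uncultured XY M2, 24 h XX F5 or F6 or 24 h XY M5 (0.94 to 1.57 over 16 omissions), and Fgf18 not without uncultured XX F5, uncultured XY M5 or M6, 24 h XX F4 or F5 or 24 h XY M2 or M4 (0.90 to 1.43).

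Markers of the cell types in the mixture moved over the same interval. In XY cells the summed Sertoli cell markers were 1498 to 1643 CPM before culture and 757 to 1214 CPM after 24 h with DMSO, with 3 of 6 markers lower, the pre-granulosa markers 92.6 to 117 and 170 to 204 CPM, with 4 of 6 higher and 1 lower, the interstitial progenitor markers 1241 to 1499 and 1861 to 2248 CPM, with 2 of 6 higher, and the erythroid markers 7618 to 9828 and 2194 to 4499 CPM, with 5 of 5 lower. Foetal Leydig cell markers went from 154 to 302 CPM to 634 to 941 CPM (3 of 4 tested higher), smooth muscle or pericyte markers from 178 to 216 CPM to 468 to 528 CPM (3 of 5 higher) and coelomic epithelium markers from 206 to 294 CPM to 331 to 451 CPM (2 of 3 tested higher). Of 5 tested macrophage markers 2 were lower, of 4 tested germ cell markers 1 was lower, and 0 of 6 endothelial markers were called (0 at an unadjusted p below 0.05). Among the Sertoli markers, Sox9 went from 663 to 320 CPM and Dhh from 194 to 67.2 CPM. Over all genes, 14.4% were called in XY cells over this interval. The interstitial progenitor markers were also higher in XY than in XX cells at each time, for example 1861 to 2248 against 679 to 857 CPM at 24 h, with 6 of 6 markers lower in XX. At 24 h the endothelial markers were 142 to 213 CPM in XY and 68.2 to 95.8 CPM in XX cells (5 of 6 lower in XX), and the erythroid markers 2194 to 4499 and 676 to 1766 CPM (5 of 5 lower). Between XX and XY cells at 24 h, 19.6% of all genes were called. Markers also moved in XX cells over the first 24 h, where 7.73% of all genes were called. Erythroid markers were 4459 to 7910 CPM before and 676 to 1766 CPM after (5 of 5 lower). Of 5 tested macrophage markers 3 were lower, and of 4 tested germ cell markers 3 were higher. Of 4 tested Leydig cell markers 2 were higher and 1 lower. Of 6 Sertoli cell markers 1 was higher, and of 6 pre-granulosa markers 1 was higher and 1 lower. The part of these cell types in the FGF results was not tested.

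From 24 h to 72 h with DMSO, Fgf2 rose in both sexes. Its log2 fold change was 1.14 in XY cells (SE 0.212, FDR 0.000106) and 1.56 in XX cells (SE 0.255, FDR 1.07e-05), and the 24 h and 72 h libraries did not overlap in either sex. Fgf2 was the single gene of the 10 called in XY cells, against 7.27% of all genes, and in XX cells, against 8.15%. The XX to XY difference did not pass the test of a change between 24 h and 72 h for Fgf2 (0.42, 95% interval −0.25 to 1.08), and 0 of the 10 genes were called, against 2.04% of all genes, with 0 at an unadjusted p below 0.05 and 0 by DESeq2, glmTreat or voom with treat. The 24 h DMSO libraries belong to set 3 of the study and the 72 h libraries to set 4, so that set and time cannot be told apart. The XX to XY differences lie within a set. Without XY 72 h replicate M2, Fgf18 was called as well (−0.98, FDR 0.0374). Over this interval 3 of 5 tested macrophage markers were higher in either sex, with summed levels of 20.6 to 46.3 CPM at 24 h and 39 to 106 CPM at 72 h in XY cells and of 15.8 to 20.0 and 16.4 to 71.5 CPM in XX cells. Erythroid markers were lower (4 of 5 in either sex), as were endothelial markers (4 of 6 in XY and 3 of 6 in XX cells) and germ cell markers (3 of 4 tested in XY and 4 of 4 in XX cells). Interstitial progenitor markers were higher, 2 of 6 in XY and 3 of 6 in XX cells, and foetal Leydig cell markers were lower in XY (3 of 4 tested) and higher in XX cells (1 of 4). The part of these cell types in the change of Fgf2 was not tested.

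With the inhibitors, no FGF ligand or receptor gene passed the test against DMSO. After 72 h with FGFRi 0 of 10 were called, against 1.8% of all genes, with 2 at an unadjusted p below 0.05 (Fgfr1 and Fgfr4). After 72 h with MEKi 0 of 10 were called, against 6.47% of all genes, with 0 at an unadjusted p below 0.05. After 24 h with MEKi 0 of 10 were called, against 3.27% of all genes, with 1 at an unadjusted p below 0.05 (Fgfr1). DESeq2, glmTreat and voom with treat also called 0 in each. At shares of this size any 10 genes can be expected to hold few calls or none, so these counts do not set the FGF genes apart. The median log2 fold change of the 10 genes was −0.20 for FGFRi and 0.28 for MEKi after 72 h and −0.10 for MEKi after 24 h, beside medians within 0.01 of 0 over all genes.

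For the ligands that were measured well, the intervals limit how large a change could have been. Fgf9 had 16.1, 19.4, 22.6 and 32.7 CPM after 72 h with FGFRi and 28.4, 15.3, 17.3 and 21.0 CPM with MEKi, around the DMSO values of 15.3 to 25.7 CPM. Its log2 fold change was 0.25 (95% interval −0.24 to 0.73) with FGFRi, 0.07 (−0.42 to 0.56) with MEKi and, after 24 h, 0.30 (−0.17 to 0.77) with MEKi. A fall of Fgf9 by 1.5-fold lies outside all 3 intervals. Fgf10 had 13.2, 13.0, 6.80 and 7.13 CPM with FGFRi and 13.3, 24.1, 14.1 and 20.5 CPM with MEKi at 72 h, and the log2 fold change with MEKi of 0.60 (−0.08 to 1.28) was not called. Fgf2, at 0.18 (−0.23 to 0.59), and Fgf18, at 0.46 (−0.12 to 1.04), were not called with MEKi at 72 h either.

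Among the receptors, Fgfr1 had 56.4, 63.6, 54.1 and 57.9 CPM after 72 h with FGFRi against 89.3, 74.6, 63.3 and 69.5 CPM with DMSO. These overlapped by 1 library, and the log2 fold change of −0.36 (95% interval −0.65 to −0.07) had an FDR of 0.201. Fgfr2 had log2 fold changes of −0.45 (−0.92 to 0.01) with FGFRi and −0.33 (−0.79 to 0.13) with MEKi. Fgfr4 had 1.73, 0.405, 2.51 and 0.839 CPM with FGFRi, all below the DMSO libraries at 3.33 to 4.49 CPM, and 6.16, 4.97, 2.83 and 8.09 CPM with MEKi. The FGFRi value of −1.54 against DMSO (−2.81 to −0.27, FDR 0.222) was not called.

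The inhibitors were also compared with each other at 72 h, at the same dose. Fgfr4 was higher with MEKi than with FGFRi, with a log2 fold change of 1.92 (SE 0.614, FDR 0.0354), the single member called against 6.43% of all genes, and the libraries did not overlap. It rests on 13 counts with FGFRi and 50 with MEKi, and the MEKi libraries were among those through which Fgfr4 passed the filter. The call was lost with no filter on low counts, with 1 CPM in 4 libraries, under glmTreat and under voom with treat. It was also lost without FGFRi replicate M2, M4 or M6 or MEKi replicate M2 or M5, with values from 1.61 to 2.46, and Fgfr4 was not tested without MEKi replicate M3, where it was below the filter. Fgf10 (0.86, 95% interval 0.17 to 1.55, FDR 0.109), Fgf2 (0.48, 0.06 to 0.89, FDR 0.143) and Fgfr1 (0.26, −0.03 to 0.55, FDR 0.276) were higher with MEKi in every library and were not called. For Fgf10 the groups were barely apart, with 13.27 CPM in the lowest MEKi library and 13.24 CPM in the highest FGFRi library. The compounds act on different proteins, and their 10 differences were adjusted with all genes.

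After 24 h with FGFRi, 0 of 10 genes were called, against 3.27% of all genes, with 3 at an unadjusted p below 0.05 (Fgf2, Fgfr1 and Fgfr3) and 0 by DESeq2, glmTreat or voom with treat. These libraries belong to set 4 and their DMSO controls to set 3, so that set and treatment cannot be told apart. Fgfr3 had 18.2, 14.9, 15.0 and 16.6 CPM with FGFRi, above all other libraries of the series, against 7.13 to 12.4 CPM with DMSO (0.69, 95% interval 0.11 to 1.27, FDR 0.181). Fgfr1 had 56.8 to 67.9 CPM against 73.8 to 86.8 CPM (−0.40, −0.68 to −0.11, FDR 0.0951), also without overlap. Without XY DMSO replicate M3, Fgf2 was called (0.80, FDR 0.0328). The change of the MEKi effect from 24 h to 72 h was called for 0 of 10 genes, against 1.41% of all genes, with 1 at an unadjusted p below 0.05 (Fgf7) and 0 by DESeq2, glmTreat or voom with treat.

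**Figure D4:**
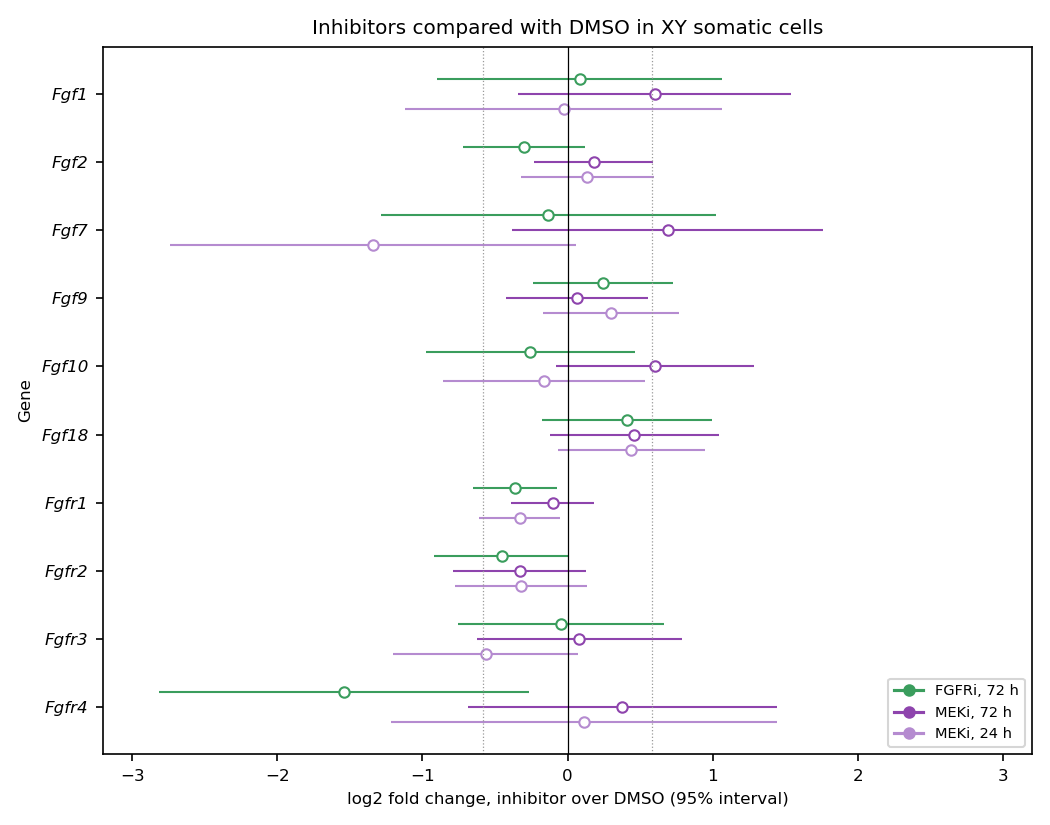
Log2 fold change of each FGF gene in XY cells, inhibitor over DMSO (x axis, log2 scale), for either inhibitor at 72 h and for MEKi at 24 h, with its 95% interval as a line; open points were not called, and dotted lines mark 1.5-fold. All points are open, and the widest intervals belong to Fgf1, Fgf7 and Fgfr4, which had the fewest counts.

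Some genes downstream of the receptors passed the test with the same inhibitors. Of 9 feedback inhibitors tested (10 listed), 2 were lower after 72 h with FGFRi: Spry1, at −1.08 on the log2 scale (FDR 0.0256), and Spred1, at −0.65 (FDR 0.0159). With MEKi 6 were lower at 72 h: Spry4 (−3.33), Spry1 (−2.38), Dusp6 (−2.16), Spry2 (−1.53), Spred1 (−0.94) and Spred2 (−0.94). At 24 h 5 were lower with MEKi: Dusp6 (−1.86), Spry4 (−1.72), Spry1 (−1.56), Spred2 (−0.80) and Spred1 (−0.77). After 24 h with FGFRi 3 were lower, Spry1 (−1.32), Spred2 (−0.65) and Spred1 (−0.59), in libraries of another set than their DMSO controls. The list medians were −0.33 with FGFRi at 72 h, −0.94 and −0.80 with MEKi at 72 h and 24 h and −0.52 with FGFRi at 24 h, beside all-gene medians within 0.01 of 0. The shares of all genes called were 1.8%, 6.47%, 3.27% and 3.27% in this order. Mean Dusp6, which encodes a phosphatase of ERK, was 92.8 CPM with DMSO, 87.3 with FGFRi and 20.2 with MEKi at 72 h.

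Of 10 ERK-responsive targets tested (11 listed), 6 were lower with MEKi at 72 h, against 6.47% of all genes called in either direction: Dusp4 (−2.25), Etv4 (−2.19), Etv5 (−2.09), Dusp5 (−0.82), Phlda1 (−0.69) and Egr1 (−0.63). At 24 h 6 were also lower, against 3.27% of all genes: Etv4 (−2.01), Etv5 (−1.60), Egr1 (−1.18), Etv1 (−0.95), Phlda1 (−0.85) and Dusp5 (−0.84). ETV1, ETV4 and ETV5 are transcription factors of the ETS family that FGF signalling is known to induce. With FGFRi at 72 h none of the targets was called lower and Ier3 was higher (1.04, FDR 0.015), against 1.8% of all genes. At 24 h 2 of the 10 were lower with FGFRi, against 3.27% of all genes: Etv1 (−1.71, FDR 6.77e-09) and Dusp4 (−1.52, FDR 0.00906), again across sets. The medians of this list were −0.10 with FGFRi and −0.66 with MEKi at 72 h and 0.06 with FGFRi and −0.90 with MEKi at 24 h. Of 18 tested genes of the route from receptor to ERK (19 listed), 0 were called with FGFRi at 72 h, against 1.8% of all genes (0 at an unadjusted p below 0.05). With MEKi 0 were called at 72 h, against 6.47% (1 at an unadjusted p below 0.05), and 1 was higher at 24 h, against 3.27% (2). With FGFRi at 24 h, across sets, 0 were called, against 3.27% (6). The change of the MEKi effect from 24 h to 72 h was called for 1 gene, with a negative value, against 1.41% of all genes. The medians of this list at 72 h were −0.06 with FGFRi and −0.03 with MEKi.

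Markers of other cell types also moved with the inhibitors. The summed macrophage markers were 39 to 106 CPM with DMSO at 72 h, 10.0 to 21.9 CPM with FGFRi (5 of 5 tested markers lower) and 18.9 to 29.4 CPM with MEKi (4 of 5 lower). The summed endothelial markers were 50.9 to 96.9 CPM with DMSO and 28.9 to 40.3 CPM with MEKi at 72 h (4 of 6 lower), and 142 to 213 CPM and 31.9 to 44.2 CPM at 24 h (6 of 6 lower). With MEKi at 72 h, foetal Leydig cell markers were 816 to 1284 CPM against 395 to 600 CPM with DMSO (3 of 4 tested higher). Coelomic epithelium markers were 472 to 525 against 286 to 389 CPM (2 of 3 tested higher). Sertoli markers were 558 to 764 against 642 to 948 CPM (2 of 6 lower and 1 higher). With FGFRi at 72 h, Sertoli markers were 910 to 1554 CPM (1 of 6 higher) and foetal Leydig cell markers 524 to 967 CPM (1 of 4 tested higher). In that comparison 0 of 6 endothelial and 0 of 3 tested coelomic epithelium markers were called. Of 5 smooth muscle or pericyte markers, 3 were lower and 1 higher with either inhibitor at 72 h, and 3 were lower with MEKi at 24 h. Their summed level at 72 h was nevertheless 507 to 630 CPM with DMSO, 586 to 872 CPM with FGFRi and 869 to 934 CPM with MEKi. At 24 h it was 468 to 528 CPM with DMSO and 430 to 524 CPM with MEKi. Germ cell markers were 93.7 to 137 CPM with DMSO and 221 to 419 CPM with MEKi at 24 h (3 of 4 tested higher), and 18.5 to 53.8 CPM with FGFRi at 24 h (2 of 4 lower). With FGFRi at 24 h the Sertoli markers were 1051 to 1683 CPM against 757 to 1214 CPM with DMSO (2 of 6 higher). Between the inhibitors at 72 h, where Fgfr4 was called, the Sertoli markers were 558 to 764 CPM with MEKi and 910 to 1554 CPM with FGFRi (5 of 6 lower), and the interstitial progenitor markers 2629 to 3408 and 1583 to 2639 CPM (1 of 6 higher). Of 6 pre-granulosa markers, 1 was higher and 1 lower with FGFRi at 72 h, and 2 were higher with MEKi at 24 h. Over all genes, 1.8% were called with FGFRi and 6.47% with MEKi at 72 h, 3.27% with either at 24 h and 6.43% between the inhibitors. The part of these cell types in the results with inhibitors was not tested.

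**Figure D5:**
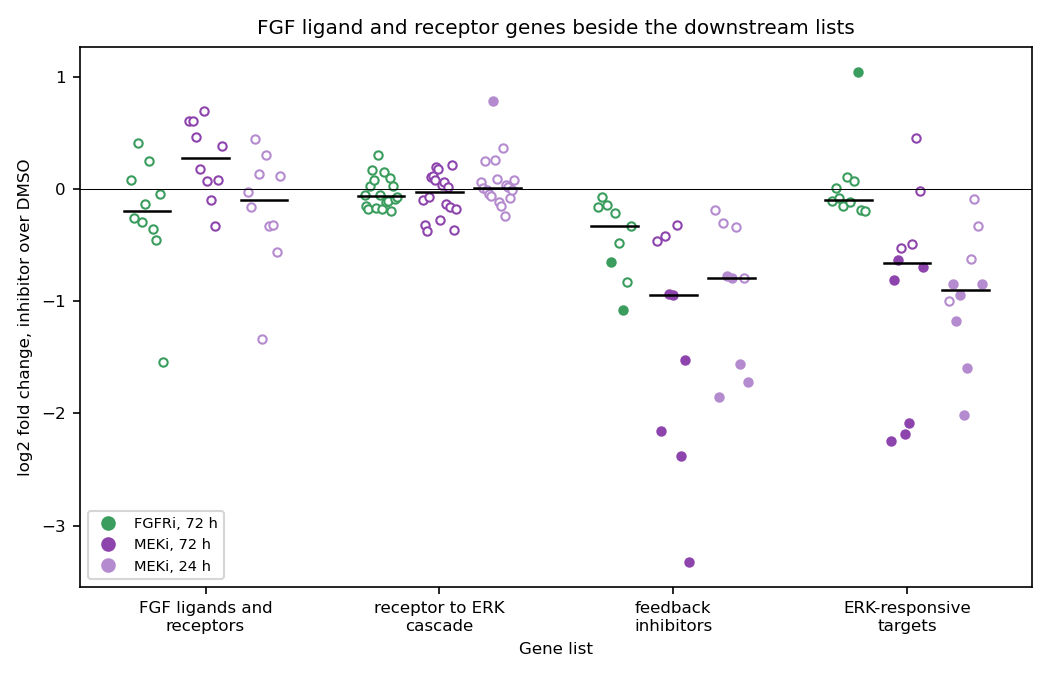
Log2 fold change, inhibitor over DMSO (y axis), of the 10 FGF ligand and receptor genes and of 3 downstream lists, for either inhibitor at 72 h and for MEKi at 24 h; each point is 1 gene, filled where called, and the black line is the median of the list. No FGF gene is filled, and the lowest point is Spry4 with MEKi at 72 h (−3.33).

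Feedback inhibitors were lower in XX than in XY cells before culture and at 24 h, and 1 of them was at 72 h. Before culture 6 of 9 were lower in XX cells, against 17.3% of all genes called in either direction: Spry4 (−2.0), Spry1 (−1.43), Dusp6 (−1.28), Il17rd (−1.12), Spred2 (−0.86) and Spred1 (−0.60). At 24 h 6 were lower, against 19.6% of all genes: Spry1 (−1.91), Spry4 (−0.91), Spred2 (−0.88), Dusp6 (−0.75), Il17rd (−0.68) and Spred1 (−0.59). At 72 h 1 of 9 was lower, Spry1 (−1.51), against 20.3% of all genes. None was called higher at any of the 3 times. The medians were −0.86, −0.68 and −0.31, beside −0.01 for all genes. Of the 10 ERK-responsive targets tested, 2 were higher and 3 lower in XX cells before culture, 2 and 2 at 24 h, and 0 and 2 at 72 h. Their medians were −0.17, 0.10 and −0.22.

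Proteins that hold or present FGFs at the cell surface differed between the sexes in both directions. Of 19 heparan sulphate genes, 3 were higher and 6 lower in XX cells before culture, 5 and 5 at 24 h, and 6 and 5 at 72 h, against 17.3%, 19.6% and 20.3% of all genes called in either direction, with medians of −0.08, −0.04 and 0.12. With the inhibitors, Sdc3, a syndecan, was lower at 72 h with FGFRi (−0.74) and with MEKi (−1.54) and at 24 h with MEKi (−0.85). The other genes of this list called in these comparisons were Hs3st1, a sulphotransferase, which was higher with FGFRi at 72 h (1.14), Gpc6, a glypican, which was lower with FGFRi at 72 h (−0.65), and Sdc4, which was lower with MEKi at 72 h (−0.70). With FGFRi at 24 h, across sets, Sdc3 was lower (−0.74) and Sdc4 (0.67) and Sulf1 (0.85), which encodes an extracellular sulphatase of heparan sulphate, were higher. Of 5 tested receptor partners (8 listed), Flrt2 was lower (−0.70) and Flrt3 higher (0.62) with MEKi at 72 h, against 6.47% of all genes. With FGFRi at 72 h 0 were called, against 1.8% (2 at an unadjusted p below 0.05), and with MEKi at 24 h 0, against 3.27% (3). The medians of the partners were −0.49 with FGFRi and −0.35 with MEKi at 72 h and −0.31 with MEKi at 24 h. With FGFRi at 24 h 0 of the 5 were called, against 3.27% of all genes (3 at an unadjusted p below 0.05), with a median of 0.30. Between XX and XY cells before culture 4 of the 5 were called, against 17.3% of all genes, with a median of 0.61. Flrt1 (0.61), Flrt2 (0.83) and Flrt3 (1.15), which encode membrane proteins that bind FGF receptors, were higher in XX cells, and Fgfrl1, a receptor-like protein without a kinase domain, was lower (−0.65, FDR 0.039). At 24 h and at 72 h Flrt1 was higher in XX cells (0.91 and 1.10) and Fgfbp1, which encodes a carrier of FGFs, was lower (−2.87 and −3.10), with medians of 0.06 and −0.22. Fgfrl1 was not called with either inhibitor. Sulf1, Flrt1 and Fgfbp1 were named after their values had been seen.

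Most other FGF ligands were too low to test. Of 12 other secreted ligands, Fgf5 alone passed the filter, and of 4 intracellular FGF-related genes Fgf11, Fgf12 and Fgf13 did. Fgf5 was lower in XX than in XY cells at 24 h (0.669 against 3.55 CPM, log2 fold change −2.25, FDR 0.00605) and at 72 h (0.149 against 2.25 CPM, −3.17, FDR 0.00657), and rose in XY cells over the first 24 h (2.71, FDR 0.0059). Fgf13, which encodes a partner of sodium channels, was lower in XX cells at each time (−2.61, −1.55 and −2.04). Fgf12 was lower in XX cells at 24 h (−1.96) and 72 h (−1.60), and Fgf11 was higher at 24 h (0.78). None of the 4 was called against DMSO with FGFRi at 72 h or with MEKi at 72 h or 24 h, against 1.8%, 6.47% and 3.27% of all genes. Fgf5 had 4.30 to 9.65 CPM with FGFRi and 0 to 3.67 CPM with DMSO at 72 h. Its log2 fold change there was 1.51, with an unadjusted p below 0.05 from edgeR. Between the inhibitors at 72 h, 1 of the 3 intracellular genes tested was called higher with MEKi, against 6.43% of all genes.

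The genes whose group means ran most closely with each member were ranked by Pearson's r of log2(CPM + 1) over the 10 groups, as a description. For Fgf9 they were Mesd (0.978), the Sertoli cell ligand Dhh (0.965) and Fstl4 (0.965), and for Fgfr2 they were Med13l (0.965), Zfp1007 (0.964) and Tert (0.958). For Fgf2 they were Tmem167b (0.974), Ppp1r12a (0.971) and Pros1 (0.968), and for Fgf10 Mettl1 (0.980), Dnm3 (0.965) and Tox (0.963). For Fgf18 they were Manf (0.958), Dnajb11 (0.927) and Nup93 (0.920), and for Fgfr1 Tnfaip8 (0.959), Meis2 (0.958) and Cdh11 (0.955). The least closely matched was Fgfr3, with Utp20 (0.924), Ibsp (0.909) and Exoc5 (0.879). For the low genes they were Pgm5 (0.947), Isoc1 (0.939) and Tmbim1 (0.935) for Fgf1, Pcdhga11 (0.964), Frk (0.961) and Pea15a (0.959) for Fgf7, and 9230114K14Rik (0.965) and Cacng4 (0.957) for Fgfr4. The 10 points share sex, time and set, and the genes were picked as the highest among all that could be ranked.

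Ordered by mean level, neighbouring groups mostly overlapped. For Fgf9 the order had 2 gaps without overlap, below the uncultured XY cells and between the lowest cultured XY group and the XX groups. For Fgfr2 the single gap lay between the uncultured XY cells and all others. Fgfr3 had its gap below XY cells after 24 h with FGFRi, Fgf18 below XY cells after 24 h with MEKi, Fgfr4 below XY cells after 72 h with DMSO, Fgf7 below XY cells after 24 h with DMSO and Fgf1 below XX cells after 72 h with DMSO. Fgf2, Fgf10 and Fgfr1 had none, so that for these genes no group differed from its neighbour beyond the spread of its libraries.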

How the data were processed

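RNA-seq of GFP-negative somatic cells was analysed in 40 libraries. The deposited values are counts of UMIs per gene and library, which the authors made with scPipe and Rsubread by aligning reads to GRCm39 and assigning them to exons; no normalisation was applied. The methods describe the UMI as 10 bases long and the code for germ cells as 8, and strand use is shown for germ cells and was taken to be the same here. Of 42422 identifiers, 40391 matched GENCODE M39, which gave names and positions.

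Counts were tested with edgeR 4.0.16 in R 4.3.3: filterByExpr by group, TMM scaling, and a quasi-likelihood fit of 10 group means to all 40 libraries, after a check on simulated data. Each library is a pool of gonads, so p-values measure the spread between pools. No libraries were copies: the 60 pairs of the same group had a chi-square of at least 1.92 per degree of freedom. Intervals are 95%. Alternatives used DESeq2 1.42.0, limma 3.58.1, other scalings and filters, and each library left out. The replicate numbers showed no pairing of libraries, and none was used in the main test. The genes named were the 10 FGF genes, pathway genes called with FGFRi at 72 h or MEKi, other FGF genes and Fgfrl1, and the 3 genes closest to each member among tested genes whose overall mean reached 5 CPM. The members and lists were chosen with earlier results of these data known, and the GATA motif was added after the promoter sequences had been seen. RefSeq windows of 8 of the 10 members were searched, all but Fgf1 and Fgfr1. Member windows on chromosome 18, which holds Fgf1, were left out. Germ cell RNA-seq was not analysed here, and results for some named genes are not reported here.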

Additional observations from a re-analysis of the deposited data

Results flagged for a closer look

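In 5 of 99 pairs of a member and a group, 1 library stood apart from the other 3 by more than the 95% critical value of Dixon's gap test; chance alone gives about 1 in 20. In XX cells at 24 h, Fgf10 had 4.46 CPM in replicate F5 and 1.4 to 1.58 CPM in the others. In XY cells at 24 h with FGFRi, Fgf18 had 8.74 CPM in replicate M5 and 14.1 to 14.6 CPM in the others. In uncultured XX cells, Fgf7 had 0.754 CPM in replicate F5 and 0 in the others. In XY cells at 24 h with MEKi, Fgfr2 had 28.8 CPM in replicate M4 and 14.1 to 16.1 CPM in the others. In uncultured XY cells, Fgfr3 had 3.59 CPM in replicate M2 and 8.26 to 8.61 CPM in the others.

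The XX to XY difference changed between E12.5 and 24 h of culture for Fgf9, by 1.32 on the log2 scale (FDR 0.0259 from edgeR), Fgf18, by 1.28 (FDR 0.0341), and Fgfr2, by −1.50 (FDR 0.00164), each by a test of the interaction.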

How the results depend on the processing

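Of 511 alternative values for the 29 called pairs of a gene and a comparison, 397 kept the call, 114 kept the direction and lost the call, and 0 reversed. In 7 pairs no alternative changed the call: Fgf9, Fgf18 and Fgfr2 between XX and XY before culture, Fgf9, Fgf10 and Fgfr2 at 24 h, and Fgf9 in XY cells over the first 24 h. DESeq2 gave the same number of called members as edgeR in every comparison. The number called was 7 for XX with XY at 24 h, 4 under glmTreat and 3 under voom with treat, and 7 at 72 h, 3 under glmTreat and 1 under voom with treat. For XY cells over the first 24 h it was 5, 3 with no filter or with the compared libraries alone, 2 under glmTreat and 1 under voom with treat. For Fgf2 from 24 h to 72 h the count of 1 became 0 in XY cells under glmTreat and voom with treat and 0 in XX cells under voom with treat. For the change of the XX to XY difference over the first 24 h it was 3, 1 under glmTreat and 0 under voom with treat. The 1 call between MEKi and FGFRi became 0 with no filter, with 1 CPM in 4 libraries, under glmTreat, voom with treat and with the compared libraries alone. The cause of these changes was not tested, except that glmTreat and treat ask for more than 1.5-fold by construction.

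Leaving out single libraries gave counts of 3 to 5 for XX with XY before culture, 5 to 7 at 24 h and 6 to 7 at 72 h, 0 to 1 for MEKi with FGFRi, 0 to 1 for FGFRi at 24 h, 2 to 4 for XY and 0 to 1 for XX cells over the first 24 h, 1 to 2 for XY cells from 24 h to 72 h, and 1 to 3 for the change of the XX to XY difference. The value of 1 in the last was given by leaving out uncultured XX F5 or 24 h XX F5.

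Of 30 pairs of same-numbered libraries, 3 had correlated deviations above 0.1 (range −0.16 to 0.12), and in 8 the same number correlated best. This check showed no pairing by number and cannot exclude it. With the replicate number as a block, the call between MEKi and FGFRi and that of Fgf2 in XX cells from 24 h to 72 h became 0, and XX with XY at 72 h became 1 (Fgfr1), with values for Fgf7 of −6.03 and for Fgfr2 of 0.13. There, 3 of the 4 XX libraries have a number that no other library has. With 0.5 in place of 1 added before log2, 27 of the 30 closest genes stayed among the closest 3. Depth limits Fgf1, Fgf7, Fgfr3 and Fgfr4: their intervals against DMSO span more than 1.5-fold in both directions in at least 1 inhibitor comparison.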
